A study of Mus musculus with 30 samples.

Results

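The secretoglobins Scgb1a1, Scgb3a1 and Scgb3a2 and the airway genes Trp63, Ngfr and Sox2, the first 2 of which mark basal cells, were followed through lung organoid cultures exposed to inflammatory and fibrotic factors. These 6 members were taken by symbol from the 55487 genes counted in every library, and each symbol stood in 1 row. The libraries came from co-cultures of 300000 Epcam+ lung epithelial cells of wild type C57BL/6J mice, adult animals of both sexes, with as many cells of CCL206, a single line of mouse lung fibroblasts kept from dividing by mitomycin C. The epithelial cells had been depleted of CD31+ and CD45+ cells before culture. For 72 hours the cultures of 4 mice received vehicle, EC (exacerbation cocktail, with the 4 factors TNFα, IL-1β, IL-6 and IL-8), IPFc (a cocktail of 9 factors found raised in idiopathic pulmonary fibrosis, the chemokines CCL2 and IL-8, the cytokines TSLP, TNFα, IL-1β, IL-4, IL-13 and IL-33, and TGF-β) or TGF-β alone at 2 ng/ml. For EC, the paper gives KC, the mouse counterpart, where the labels give IL-8. Cells were then separated again with Epcam microbeads, and bulk RNA was sequenced from Epcam+ cells, here called epithelial libraries, and from Epcam- CCL206 cells, here called fibroblast libraries. Each of the 8 groups of fraction and treatment had 4 libraries, except epithelial TGF-β (mice 2, 3 and 4) and fibroblast vehicle (mice 1, 3 and 4) with 3 each. The remaining library of those groups was not analysed here.

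Secretoglobins are small secreted proteins that form disulfide-linked dimers. Scgb1a1 (also called CC10 or uteroglobin) is the classical product of club cells, the secretory cells of the bronchioles, while Scgb3a1 is a product of secretory cells of the larger airways and Scgb3a2 of club cells. Trp63 encodes p63, a transcription factor that maintains basal cells, the stem cells at the base of the airway epithelium. Ngfr is the low-affinity neurotrophin receptor p75NTR, used as a surface marker of basal cells together with the keratins Krt5 and Krt14. Sox2 is a transcription factor that sets airway identity in the developing lung and stays on in basal, club and ciliated cells. In bulk libraries, fewer cells of a type and less RNA per cell cannot be told apart.

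The libraries held between 5113828 and 20317181 reads counted on genes, the smallest being the fibroblast EC library of mouse 1. Epcam ranged from 210 to 410 CPM (read counts scaled to the total of the library) in epithelial and from 3.00 to 111 CPM in fibroblast libraries, and the collagen gene Col1a1 from 53.9 to 1182 and from 799 to 4915 CPM. Ptprc, a marker of leukocytes, was at most 0.341 CPM and Pecam1, a marker of endothelium, at most 0.967 CPM in epithelial libraries, while Cd14, which airway epithelium can also express, ranged from 118 to 473 CPM there and was most of the immune list in vehicle. Each fraction carried RNA of the other. Over fibroblast reference genes, epithelial libraries had a median of 4.35 to 9.62% of their partner's level in vehicle, 5.34 to 17.4% in EC, 4.98 to 16.1% in IPFc and 28.3 to 33.7% in TGF-β. Over epithelial reference genes, fibroblast libraries had 15.2 to 30.0% of their partner's level in vehicle, 32.0 to 58.4% in EC, 10.95 to 31.4% in IPFc and 0.946 to 3.41% in TGF-β. A fibroblast gene that the treatment also raised in epithelial cells would count toward this value, and the parts of both cannot be told apart.

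Scgb1a1 had by far the highest level per length of the 6 genes. In epithelial vehicle libraries it stood at 2065 ± 356 CPM per kilobase of exon (SD, n = 4), followed by Sox2 at 45.4 ± 10.1 and Scgb3a1 at 10.4 ± 3.46. Ngfr at 2.13 ± 1.52, Scgb3a2 at 1.19 ± 0.980 and Trp63 at 1.17 ± 0.803 CPM per kilobase did not differ from each other beyond their spread. The length was the union of all annotated exons, such as 1792 bases for Scgb3a1 and 8391 for Trp63. It can exceed the transcript that is made, so that values per kilobase may be too low. Of the 69 genes of the annotation whose symbols begin with Scgb, 65 had 0 reads in all 30 libraries. The only one with reads beside the 3 members was Scgb1c1, with 13 reads in total. Scgb1a1 (ENSMUSG00000024653) lies on chromosome 19, 9083642 to 9087956. Scgb3a1 (ENSMUSG00000064057) and Ngfr (ENSMUSG00000000120) both lie on chromosome 11, at 49663595 to 49665118 and 95568818 to 95587698. Trp63 (ENSMUSG00000022510) lies on chromosome 16, 25683763 to 25892088, and Sox2 (ENSMUSG00000074637) on chromosome 3, 34649995 to 34652461, inside the noncoding gene Sox2ot, which was at most 1.28 CPM. Scgb3a2 (ENSMUSG00000038791) lies on chromosome 18, 43764301 to 43767399. All positions are taken from RefSeq on GRCm38.p6, the build the paper names, and the counts are of reads on whole genes.

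**Figure D1:**
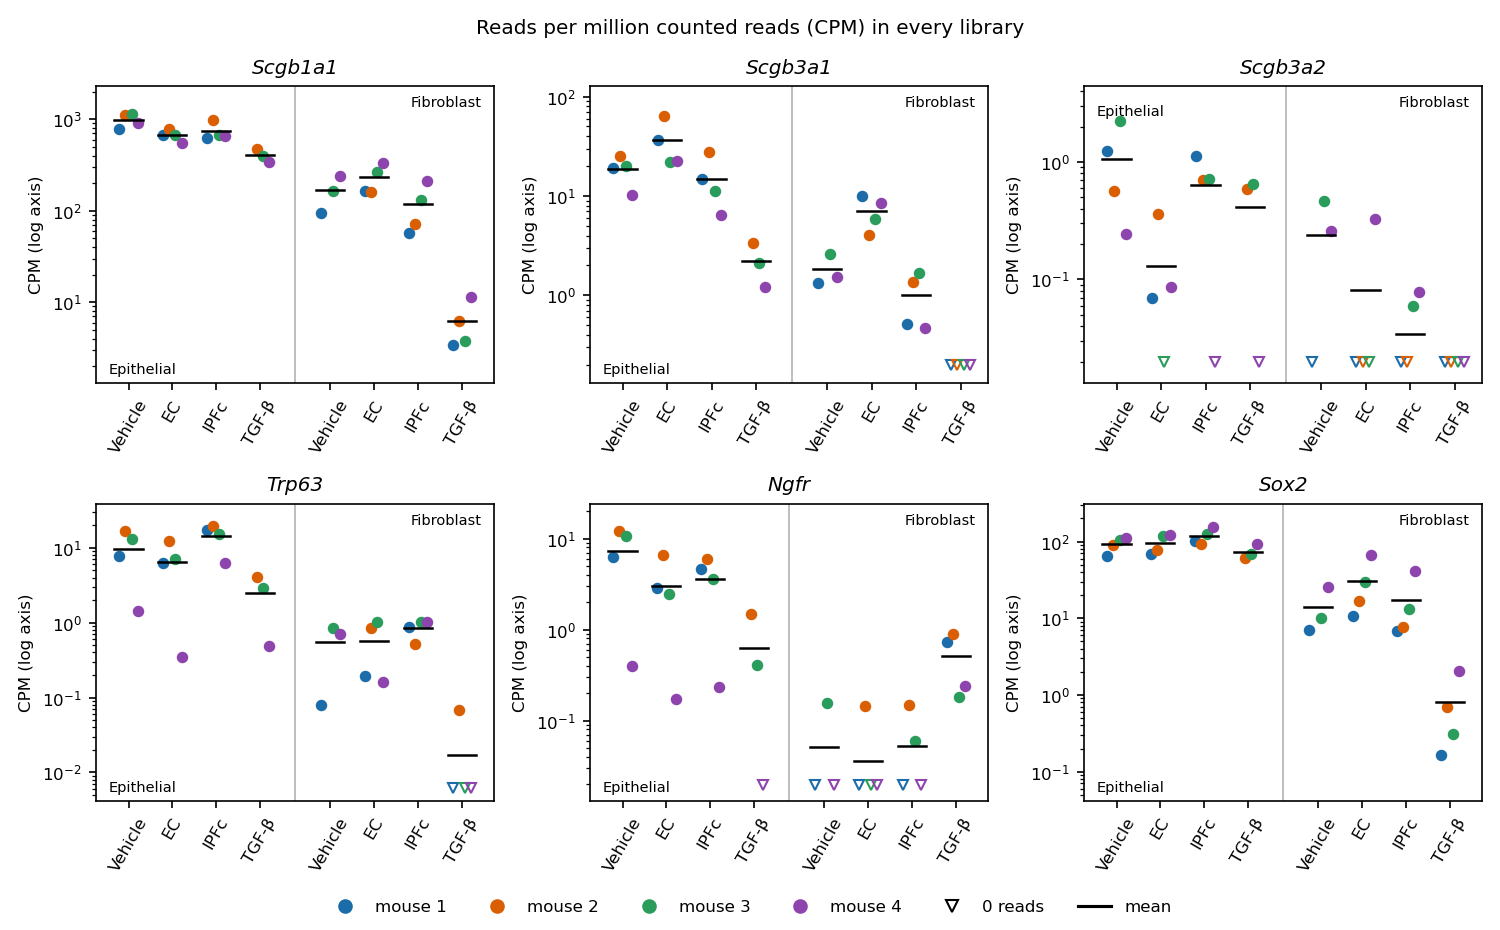
Level of the 6 genes in each of the 30 libraries, as CPM on log axes, by fraction and treatment. Points are libraries coloured by mouse, black bars are group means and open triangles are libraries with 0 reads. Scgb1a1 and Sox2 were read in every library, whereas Scgb3a1 had 0 reads in 4 of 4 fibroblast TGF-β libraries and Trp63 and Ngfr were lowest in mouse 4 of the epithelial vehicle group.

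Across the 8 groups, Scgb1a1 was ordered from epithelial vehicle (991 ± 171 CPM) through IPFc (737 ± 170), EC (668 ± 95.5) and TGF-β (404 ± 69.3) to fibroblast EC (232 ± 84.4), vehicle (167 ± 73.4), IPFc (118 ± 70.2) and TGF-β (6.25 ± 3.75, SD, n = 3 or 4). Of the 7 steps between neighbours in that order, 3 had ranges that did not overlap, those into epithelial TGF-β, from there into fibroblast EC, and into fibroblast TGF-β. For Scgb3a1, 2 of 7 such steps did not overlap. For Trp63, Ngfr and Sox2 it was 1 of 7 each, and for Scgb3a2 it was 0 of 7. The groups were ordered by these same values and the count was not made for other genes, so it does not set the members apart. Epithelial vehicle was the highest group for Scgb1a1, Scgb3a2 and Ngfr, EC for Scgb3a1 and IPFc for Trp63 and Sox2, although the ranges of the highest group and the next overlapped for each of the 6 genes. Mouse 4 stood apart in the basal markers. Its epithelial vehicle library had 18 reads of Trp63 and 5 of Ngfr, against 113 to 265 and 92 to 218 in the other mice, while its Sox2 was the highest of the 4.

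The first question was how EC, which models an exacerbation of COPD, changed the genes in epithelial cells. EC lowered Scgb1a1 and Ngfr and raised Scgb3a1, so that the 2 most abundant secretoglobins moved in opposite directions. Scgb1a1 was 791, 1111, 1154 and 909 CPM in the vehicle libraries of mice 1 to 4 and 672, 784, 666 and 550 CPM in their EC libraries. It was lower in each mouse, and the groups did not overlap. The log2 fold change was -0.54 (standard error 0.09, adjusted p = 0.00204, edgeR's quasi-likelihood test with Benjamini-Hochberg adjustment over all genes tested, as for every adjusted p below). Scgb3a1 was 18.9, 25.1, 20.1 and 10.2 CPM in vehicle and 36.4, 63.9, 22.1 and 22.7 CPM in EC. It was higher in each mouse, by 0.13 (mouse 3) to 1.35 on the log2 scale, although the groups overlapped. The fitted log2 fold change was 0.91 (standard error 0.16, adjusted p = 0.00207). Of 17789 genes tested, 4.67% were differentially expressed (DEGs, adjusted p under 0.05), 1.96% higher and 2.70% lower, against 3 of the 6 members, 1 higher and 2 lower.

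The ratio of both secretoglobins within a library does not depend on the scaling between libraries. There were 2.39, 2.26, 1.75 and 1.12 Scgb3a1 reads per 100 Scgb1a1 reads in the vehicle libraries of mice 1 to 4 and 5.41, 8.15, 3.32 and 4.12 in their EC libraries. The ratio was higher with EC in each mouse and the groups did not overlap. In IPFc it was 2.34, 2.79, 1.65 and 0.971, a range that covered that of vehicle. In TGF-β it was 0.714, 0.531 and 0.357 in mice 2 to 4, below every vehicle library. This ratio was chosen after the values were seen and was not tested.

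**Figure D2:**
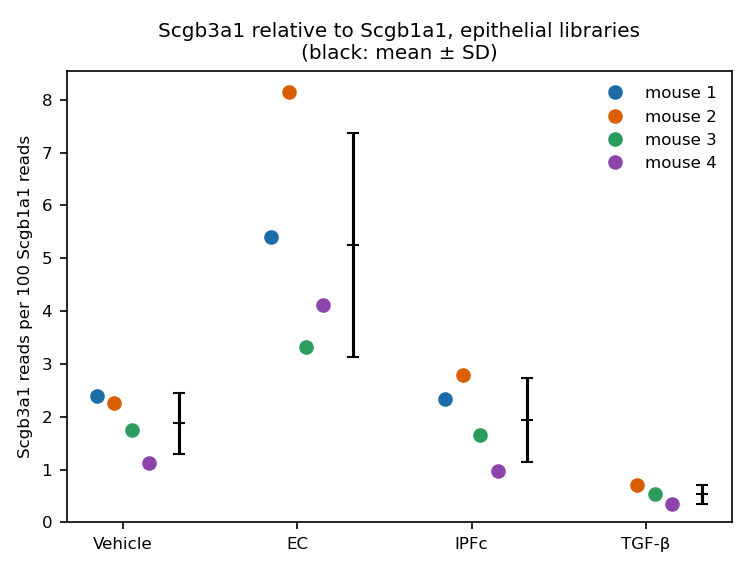
Scgb3a1 reads per 100 Scgb1a1 reads in the epithelial libraries (linear axis from 0) by treatment. Points are libraries coloured by mouse, and black bars give mean ± SD (n = 4, TGF-β n = 3). The EC libraries lie between 3.32 and 8.15, above the vehicle libraries at 1.12 to 2.39, and the TGF-β libraries lie between 0.357 and 0.714.

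Ngfr was 6.28, 12.0, 10.7 and 0.403 CPM in vehicle and 2.84, 6.55, 2.46 and 0.173 CPM in EC, lower in each mouse (log2 fold change -1.35, standard error 0.24, adjusted p = 0.00249). The spread between mice was larger than the change, so the groups overlapped. Trp63 was 7.71, 16.98, 13.0 and 1.45 CPM in vehicle and 6.23, 12.2, 7.04 and 0.346 CPM in EC. It was also lower in each mouse but was not past the threshold (log2 fold change -0.65, standard error 0.19, adjusted p = 0.0694). Scgb3a2 had 18, 7, 45 and 3 reads in vehicle and 1, 5, 0 and 1 reads in EC, which is 1.22 CPM (95% exact Poisson interval 0.956 to 1.53, counting error only) and 0.122 CPM (0.0492 to 0.252) over the summed libraries. Its log2 fold change of -2.94 had a standard error of 0.87 and an adjusted p of 0.0694. Sox2 differed by 0.06 (95% interval -0.13 to 0.25, adjusted p = 0.868), with 65.3, 90.5, 106 and 112 CPM in vehicle and 69.0, 77.0, 119 and 121 CPM in EC.

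These calls depended on the mouse as a block, without which 0 of the 6 genes were called (adjusted p = 0.0640, 0.199 and 0.627 for Scgb1a1, Scgb3a1 and Ngfr). After subtraction of the fibroblast share the log2 fold changes were about as large, at -0.49, 0.98 and -1.26, but were not past the threshold either (0.0902, 0.0602 and 0.0913). Over all genes, 308 were called without the block and 247 after the subtraction, against 830 in the main test. Ngfr was not called without mouse 3 (adjusted p = 0.0531), whereas Scgb3a2 was called without mouse 2 (0.00915) or mouse 4 (5.81e-04) and Trp63 without mouse 1 (0.0493) or mouse 4 (0.00707).

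Among the other genes of club cells, EC also moved genes both ways. Of 24 tested genes on the club cell list, 5 were higher and 8 lower (median log2 fold change -0.27, against -0.01 over all genes). The higher genes with the smallest adjusted p were Pigr (3.55), which carries immunoglobulins across the epithelium, and Reg3g (1.04), which encodes an antibacterial lectin, beside Scgb3a1. The lower ones were Cckar (-2.53), a receptor for cholecystokinin, and Bpifa1 (-1.06), a secreted airway defence protein, beside Scgb1a1. Of the 18 genes listed as regulators of Scgb1a1, 3 were higher, namely Cebpd (1.67), Ehf (0.42) and the secretory cell factor Spdef (0.94), and 3 lower, namely Notch1 (-0.80), the Notch ligand Jag2 (-0.66) and the Notch target Hes1 (-0.45). Goblet cell genes had 6 of 13 higher and 0 lower, led by the trefoil peptide Tff2 (3.22), the anion exchanger Slc26a4 (2.62) and the lectin Itln1 (3.05). On the basal cell list 8 of 25 genes were lower and 0 higher (median -0.29), with Krt15 (-1.35) beside Ngfr.

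In IPFc, Trp63 and Ngfr moved in opposite directions, a difference between genes that was not itself tested. The call of Trp63 was lost under 8 of 13 alternatives, given below. In most mice Ngfr reads also fell relative to Trp63 reads in EC and TGF-β, as given at the end. Trp63 rose to 17.2, 19.4, 15.3 and 6.21 CPM in mice 1 to 4, from 7.71, 16.98, 13.0 and 1.45 in vehicle, and was higher in each mouse (log2 fold change 0.72, standard error 0.20, adjusted p = 0.0228). The rise was largest in mouse 4, by 2.10 on the log2 scale, and smallest in mouse 2, by 0.19. Ngfr fell to 4.63, 6.01, 3.55 and 0.233 CPM, lower in each mouse (-1.02, standard error 0.23, adjusted p = 0.00370). The basal keratins Krt5 and Krt15 went the way of Ngfr, whereas Krt14 and Krt17 were each higher in 2 of 4 mice and lower in 2. Krt5 fell from 220, 732, 371 and 13.4 CPM to 177, 344, 160 and 7.14 CPM (-0.89, adjusted p = 1.50e-06), and Krt15 had a log2 fold change of -0.80 (adjusted p = 7.58e-06). Of the 25 basal cell genes, 10 were lower and 2 higher, Trp63 and the growth factor receptor Egfr (0.46), with a median of -0.30 against 0.00 over all genes. Egfr was called lower in epithelial than in fibroblast libraries of IPFc cultures, and the part of fibroblast RNA in its rise was not tested. Krt5 is also the gene whose pattern over the 15 epithelial libraries was most like that of Ngfr (Pearson's r = 0.969 of log2 CPM), ahead of Krt15 (0.967) and Aqp3 (0.962), a water channel of basal cells.

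**Figure D3:**
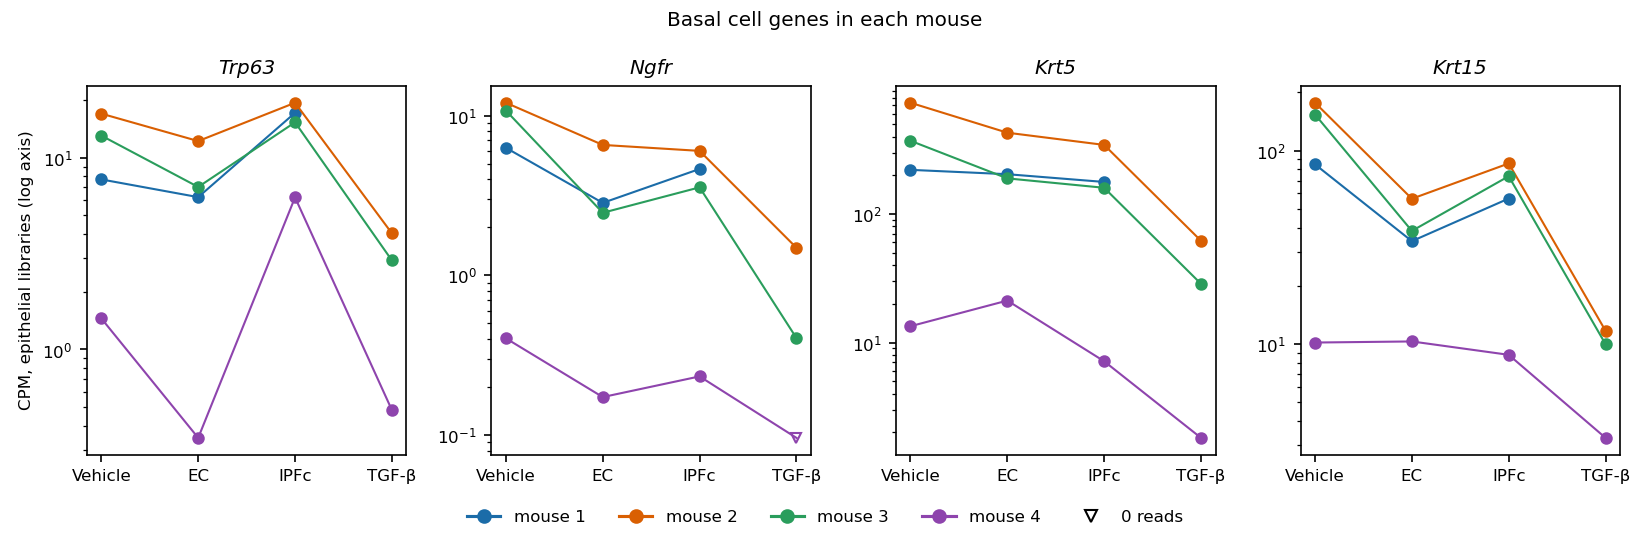
CPM of Trp63, Ngfr, Krt5 and Krt15 in the epithelial libraries on log axes, with lines joining the libraries of a mouse across treatments and an open triangle for 0 reads. From vehicle to IPFc, Trp63 was higher and the other 3 genes lower in each of 4 mice, and all 4 genes were lower in TGF-β in each of 3 mice. Mouse 4 lies below the other mice in every panel.

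Reads of Trp63 per 100 reads of Krt5 were 3.50, 2.32, 3.52 and 10.8 in vehicle, 3.06, 2.85, 3.73 and 1.63 in EC, and 9.68, 5.62, 9.58 and 87.0 in IPFc, the value of mouse 4 resting on 80 and 92 reads. In mice 1 to 3 the IPFc value lay above every vehicle and EC value of those mice. In TGF-β the values were 6.53, 10.2 and 26.7 in mice 2 to 4, the last one from 4 and 15 reads. Krt5 was set beside Trp63 after its values were seen, so this ratio was not tested.

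Among the secretoglobins, IPFc lowered Scgb1a1 to 629, 990, 671 and 656 CPM, lower in each mouse (log2 fold change -0.44, standard error 0.08, adjusted p = 4.82e-04), with overlapping groups. Scgb3a1 stood at 14.7, 27.6, 11.1 and 6.37 CPM, below vehicle in 3 of 4 mice (-0.42, standard error 0.15, adjusted p = 0.101), and Scgb3a2 had 14, 12, 11 and 0 reads (-0.74, standard error 0.55, adjusted p = 0.636). Sox2 rose modestly, to 101, 94.1, 125 and 155 CPM, higher in each mouse (0.34, standard error 0.09, adjusted p = 0.0208), with overlapping groups. In IPFc, 5.94% of 17927 genes were DEGs, 3.37% higher and 2.57% lower, against 2 members higher and 2 lower. Fibroblast reference genes were higher in these libraries in 16 of 28 tested, with a median of 0.74. None of Trp63, Ngfr, Scgb1a1 and Sox2 was higher in fibroblast than in epithelial libraries of IPFc cultures.

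Of the 4 calls in IPFc, 0 remained without the mouse as a block (adjusted p = 0.237 to 0.798) and 1, that of Sox2, after subtraction of the fibroblast share, where the log2 fold changes of Trp63, Ngfr and Scgb1a1 were 0.86, -0.89 and -0.35 (adjusted p = 0.103, 0.130 and 0.163). Over all genes, 274 were called without the block and 391 after the subtraction, against 1065 in the main test. The call of Trp63 was lost under 8 of 13 alternatives, which beside those 2 were without mouse 1 (0.149) or mouse 4 (0.136), with DESeq2 (0.335), with edgeR's own filter (0.0769), with robust estimation (0.137) and in 1 model over all treatments (0.103). The call of Sox2 was lost without mouse 1 (0.296) or mouse 4 (0.192) and in that model (0.0637), and that of Ngfr without mouse 3 (0.0564), while Scgb3a1 was called lower without mouse 2 (0.00387).

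The club cell list moved both ways in IPFc, with 8 of 24 tested genes higher and 5 lower (median -0.15). Retnla (2.82), a small secreted protein of type 2 inflammation, Bpifb1 (2.38) and Pigr (2.08) led the higher genes, and Hp (-0.65), which encodes haptoglobin, and the club cell cytochrome Cyp2f2 (-0.42) the lower ones beside Scgb1a1. Goblet cell genes had 7 of 13 higher and 1 lower, led by Clca1 (9.14) and Slc26a4 (5.65). Regulators of Scgb1a1 had 0 higher and 2 lower, Notch1 (-0.55) and Cebpa (-0.28).

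The cocktails were also compared directly. Scgb3a1 was 1.34 higher on the log2 scale in EC than in IPFc (standard error 0.15, adjusted p = 1.02e-05) and Trp63 was 1.34 lower (-1.34, standard error 0.26, adjusted p = 0.00456), each in the same direction in 4 of 4 mice. These were 2 of the 6 members, against 3.54% of 17734 genes. For Scgb1a1 the difference was -0.09 (95% interval -0.29 to 0.11), for Ngfr -0.33 (-0.85 to 0.19) and for Sox2 -0.28 (-0.49 to -0.07, adjusted p = 0.240), and Scgb3a2 was not past the threshold either (-2.29, adjusted p = 0.322). Without the block neither call remained (adjusted p = 0.207 and 0.585), and that of Trp63 was also lost without mouse 3 (0.0633), with DESeq2 (0.148) and after subtraction of the fibroblast share (0.201). Over all genes, 264 were called without the block and 188 after the subtraction, against 627 in the main test.

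TGF-β alone lowered Scgb1a1, Scgb3a1, Trp63 and Ngfr, while Scgb3a2 was not past the threshold. Scgb1a1 stood at 476, 397 and 338 CPM in mice 2 to 4, below every vehicle library (log2 fold change -1.50, standard error 0.09, adjusted p = 3.42e-33). Scgb3a1 stood at 3.40, 2.11 and 1.21 CPM, below every vehicle library (-3.15, standard error 0.22, adjusted p = 6.98e-29). Ngfr had 28, 5 and 0 reads (-3.70, standard error 0.37, adjusted p = 2.49e-17) and Trp63 4.04, 2.92 and 0.483 CPM (-2.17, standard error 0.26, adjusted p = 7.83e-13). Both were lower in each mouse, but their ranges overlapped vehicle through mouse 4. Scgb3a2 had 11, 8 and 0 reads (-1.23, standard error 0.73, adjusted p = 0.178). Sox2 stood at 60.7, 68.9 and 92.1 CPM with ranges that overlapped vehicle, and was lower in each mouse (-0.60, standard error 0.11, adjusted p = 4.14e-07), but this direction turned to 0.017 (adjusted p = 0.909) when the libraries were scaled to epithelial reference genes, a scaling chosen after seeing the data. That scaling moved the median of all genes by 0.66 in TGF-β and 0.19 in IPFc, and relative to it Scgb1a1, at -0.89, Scgb3a1, Trp63 and Ngfr were still called lower in TGF-β. The reference genes themselves had a median log2 fold change of -0.60 in TGF-β, with 23 of 34 called lower and 3 higher. A fall as large as theirs is therefore removed by this scaling, and it cannot tell whether Sox2 fell.

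In TGF-β, 41.7% of 18387 genes were DEGs, 21.2% higher and 20.5% lower, against 5 of the 6 members, each lower, Sox2 with the exception just given. Fibroblast reference genes were higher in these epithelial libraries in 28 of 29 tested (median 3.01), and after subtraction of the fibroblast share Sox2 was not past the threshold (-0.18, adjusted p = 0.382), nor was it without the mouse as a block (0.0629). Scgb1a1, Scgb3a1, Trp63 and Ngfr were called lower under each of the 13 alternatives tried. These share libraries and are not independent, and leaving out mouse 1 removed only a vehicle library without a TGF-β partner. Compared with TGF-β, 32.9% of 18192 genes differed in EC and 37.0% of 18271 in IPFc, and in both comparisons 5 of the 6 members were higher than in TGF-β, Scgb3a2 being the exception (adjusted p = 0.471 and 0.798). The difference was widest for Scgb3a1 in EC (4.12, standard error 0.24). In EC it was not past the threshold for Trp63 without mouse 2 (adjusted p = 0.149) and for Sox2 without mouse 3 (0.0901), and 2 of the 6 members remained called without the block (Scgb1a1 and Scgb3a1), after subtraction of the fibroblast share (Scgb3a1 and Ngfr) or with the libraries scaled to epithelial reference genes (Scgb3a1 and Ngfr). Over all genes, 6492 were called without the block, 2531 after the subtraction and 7995 with that scaling, against 5984 in the main test. The comparisons with vehicle share the vehicle libraries, and those with TGF-β the TGF-β libraries.

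**Figure D4:**
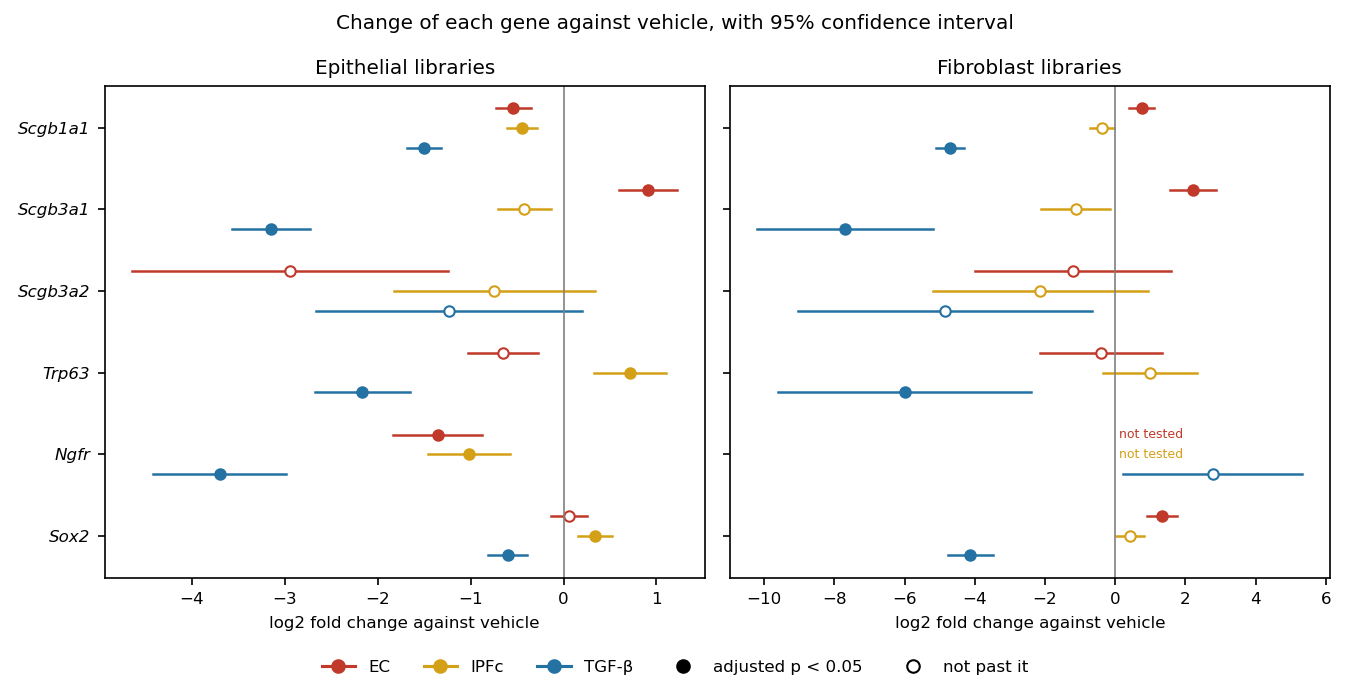
Log2 fold change against vehicle with 95% confidence intervals, for EC, IPFc and TGF-β in epithelial (left) and fibroblast libraries (right, another axis range). Filled points passed an adjusted p of 0.05 and open points did not. The interval of fibroblast Scgb3a1 in TGF-β rests on 0 reads in 4 of 4 libraries, where the counts give only a lower limit on the fall. Epithelial Scgb3a1 was higher in EC (0.91) and lower in TGF-β (-3.15), and epithelial Sox2 lay between -0.60 and 0.34, its TGF-β value turning to 0.017 when scaled to epithelial reference genes.

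The other airway genes fell with TGF-β in large part. Of 23 tested club cell genes, 21 were lower and 1, the stress gene Nupr1 (0.53), was higher (median -1.72, against 0.05 over all genes), led by Retnla (-5.61), Reg3g (-5.66) and Bpifa1 (-3.25). Among the 18 regulators of Scgb1a1, 11 were lower and 0 higher, led by Cebpa (-1.53), Elf5 (-2.29) and Elf3 (-1.16). Of the 25 basal cell genes, 17 were lower, led by Krt5 (-3.67), Aqp3 (-4.12) and Krt15 (-3.75), and 5 were higher, among them the laminin chains Lama3 (2.47) and Lamb3 (0.73) and Egfr (2.13). Of 21 genes on the list of Sox2 partners and airway regulators, 14 were lower, led by Sox21 (-1.41), Irx3 (-1.02) and Etv5 (-0.87), and 5 higher, led by Sox4 (2.26), Sox9 (3.07), which marks the distal tips of the developing lung, and the Hedgehog effector Gli3 (1.45). In EC this list had 3 lower and 0 higher of 21, namely Sox21 (-0.61), Hes1 (-0.45) and Etv5 (-0.46), and in IPFc 2 lower, Foxj1 (-0.91) and Sox21 (-0.47), and 2 higher, Sox9 (1.23) and Sox2. Sox9 was itself a gene of the fibroblasts here, at 66.5, 67.6 and 77.3 CPM in fibroblast against 1.94 to 7.10 CPM in epithelial vehicle libraries. Egfr and Sox4 were also called lower in epithelial than in fibroblast libraries in vehicle. The part of fibroblast RNA in the rises of these genes was not tested.

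Bdnf, brain-derived neurotrophic factor and a ligand of Ngfr, moved opposite to the receptor in TGF-β. It was 1.85 to 3.62 CPM in the epithelial vehicle libraries and 22.8, 24.1 and 19.7 CPM in the TGF-β libraries of mice 2 to 4, without overlap (log2 fold change 3.12, standard error 0.21, adjusted p = 2.51e-29). In the fibroblast libraries it stood at 44.6 to 63.1 CPM in vehicle and 55.5 to 69.5 CPM in TGF-β, above every epithelial library, and the part of fibroblast RNA in its rise was not tested. Of the 13 tested genes on the list of Ngfr ligands and co-receptors, 8 were higher and 1 lower in TGF-β (median 0.59), 1 higher and 2 lower in EC, and of 14 tested 4 were higher and 1 lower in IPFc. Sorl1, a sorting receptor, was the lower gene that all 3 shared (-0.65 in EC, -0.31 in IPFc and -0.77 in TGF-β), and Sorcs1 was higher in EC (1.70) and IPFc (1.48). Sorcs1 was called lower in epithelial than in fibroblast libraries under both cocktails, and the part of fibroblast RNA in its rise was not tested.

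Upstream sequence was read for Scgb3a1, Ngfr and Sox2, the only members for which it was at hand. They were not chosen by their response. The 250 bases before the annotated start are given 5′ to 3′ on the strand of the gene from RefSeq, build GRCm38.p6 (Scgb3a1, chr11:49663345-49663594, plus strand, Ngfr, chr11:95587699-95587948, minus strand, and Sox2, chr3:34649745-34649994, plus strand), with matches to the motifs in capitals.
Scgb3a1: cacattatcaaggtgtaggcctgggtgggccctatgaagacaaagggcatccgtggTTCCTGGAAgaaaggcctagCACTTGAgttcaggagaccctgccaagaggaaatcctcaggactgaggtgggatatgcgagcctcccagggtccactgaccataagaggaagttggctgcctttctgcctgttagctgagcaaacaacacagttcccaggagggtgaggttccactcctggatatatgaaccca
Ngfr: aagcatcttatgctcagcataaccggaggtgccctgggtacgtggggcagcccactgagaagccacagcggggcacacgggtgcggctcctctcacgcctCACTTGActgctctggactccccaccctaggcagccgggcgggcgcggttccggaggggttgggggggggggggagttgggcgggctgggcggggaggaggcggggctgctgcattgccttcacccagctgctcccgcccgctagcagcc
Sox2: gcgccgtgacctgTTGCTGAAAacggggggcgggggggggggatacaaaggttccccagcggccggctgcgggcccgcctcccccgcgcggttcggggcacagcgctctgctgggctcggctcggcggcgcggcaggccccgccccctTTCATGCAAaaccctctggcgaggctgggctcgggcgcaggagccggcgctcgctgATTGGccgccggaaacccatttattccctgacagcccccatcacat
The 9 motifs, searched on both strands, were the TATA box TATAAA, the AP-1 motif TGANTCA, the STAT motif TTCNNNGAA, the FOXA motif TGTTTAC and the NKX2-1 motif CACTTGA. The others were the NF-κB type motif GGNNTTTCC, the SMAD motif GTCTAGAC, the C/EBP motif TTGCNNNAA and the CCAAT box. The NKX2-1 motif was present in the windows of Scgb3a1, 174 to 168 bases before the start, and Ngfr, 150 to 144 bases before it, and in 2.68% of 32851 windows of the same length. TTCNNNGAA was found in Scgb3a1 (7.02% of windows), TTGCNNNAA at 2 places in Sox2 (8.29%) and CCAAT, on the opposite strand, in Sox2 (33.8%). The other motifs, with no match in these windows, occurred in 12.4% (TATAAA), 6.75% (TGANTCA), 3.17% (TGTTTAC), 4.93% (GGNNTTTCC) and 0.167% (GTCTAGAC) of them. The matches did not overlap each other. The G and C content was 53.6% for Scgb3a1, 70.4% for Ngfr and 72.0% for Sox2, against a median of 52.4%. A match is a description of the letters and not a binding site.

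Each epithelial gene was also read in the fibroblast libraries, where the question was whether it followed the epithelial RNA carried over. All 6 members were called higher in epithelial than in fibroblast libraries in vehicle and in IPFc, and 5 of 6 in EC and in TGF-β, against 46.1% of genes called in vehicle, 30.1% in EC, 53.4% in IPFc and 46.1% in TGF-β in either direction. In vehicle the differences ran from 2.23 for Scgb3a2 to 6.66 for Ngfr on the log2 scale. The exceptions were Scgb3a2 in EC (0.80, adjusted p = 0.732) and Ngfr in TGF-β (0.26, adjusted p = 0.840). The calls of Scgb3a2 in vehicle were lost without mouse 1 (0.308) or mouse 3 (0.284), those in IPFc without mouse 1 (0.0952), mouse 2 (0.0686) or mouse 3 (0.0710), and those in TGF-β without mouse 2 (0.132) or mouse 3 (0.220).

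Scgb1a1 in the fibroblast libraries was 12.0, 14.2 and 26.6% of its level in the epithelial partner in the vehicle cultures of mice 1, 3 and 4, where the epithelial reference genes had a median of 15.9, 15.2 and 30.0%. Over all 15 fibroblast libraries, the percentage for Scgb1a1 lay between the quartiles of the reference genes in 9 and below them in 6. The percentage for Sox2 lay below the lower quartile in 14 of 15 libraries, that for Scgb3a1 in 13 and that for Trp63 in 14, the remaining Trp63 value lying above the upper quartile.

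**Figure D5:**
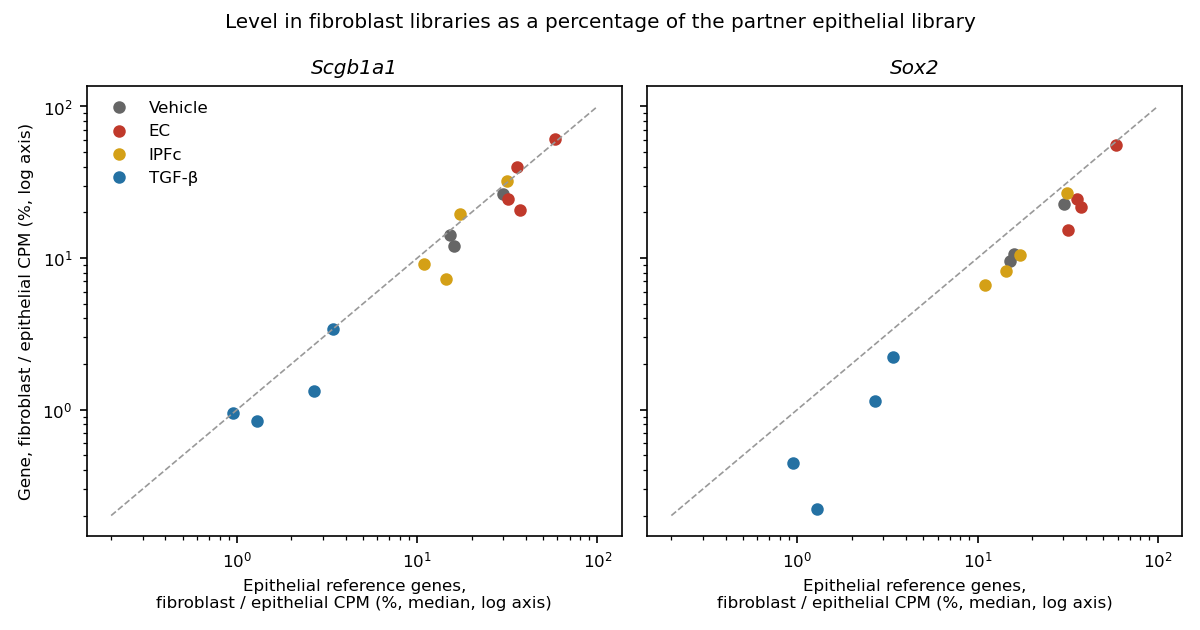
Level in each of the 15 fibroblast libraries as a percentage of the level in the epithelial library of the same culture, on log axes, for Scgb1a1 (left) and Sox2 (right) against the median over epithelial reference genes. The dashed line marks equal percentages, colours give the treatment, and where a partner library was not analysed the mean of its group was used. Scgb1a1 lies near the line, with 9 of 15 libraries between the quartiles of the reference genes, and Sox2 lies below it in 15 of 15.

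Against vehicle, EC raised Scgb1a1 (0.75, standard error 0.18, adjusted p = 0.00109), Scgb3a1 (2.21, standard error 0.34, adjusted p = 1.02e-08) and Sox2 (1.32, standard error 0.22, adjusted p = 1.58e-07) in the fibroblast libraries, 3 of the 5 members tested, where 10.1% of 18091 genes were DEGs. Scgb1a1 was 95.04, 164 and 242 CPM in vehicle (mice 1, 3 and 4) and 165, 162, 265 and 336 CPM in EC (mice 1 to 4). Scgb3a1 was 1.34, 2.63 and 1.54 CPM in vehicle and 9.97, 4.02, 5.90 and 8.46 CPM in EC, without overlap. The epithelial reference genes were higher in the same libraries in 27 of 34 tested and lower in 0, with a median of 1.07. Subtraction of the epithelial share took all reads of Scgb1a1 from the vehicle libraries and left too few of Scgb3a1 and Sox2 to be tested, so that it gave no usable value for these genes. None of the 3 was called without the mouse as a block (adjusted p = 0.584, 0.0820 and 0.488), and Scgb1a1 was not called without mouse 4 (0.0660) or in 1 model over all treatments (0.0552). Over all genes, 49 were called without the block, against 1831 with it.

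In IPFc, where 1.27% of 18086 genes were DEGs, none of 5 tested members was called in the fibroblast libraries by edgeR. Scgb1a1 (-0.38), Scgb3a1 (-1.12) and Sox2 (0.41) had an unadjusted p under 0.05, and DESeq2 called none of them either. The epithelial reference genes had 0 higher and 2 lower of 34 (median -0.23). In TGF-β, where 19.9% of 17993 genes were DEGs, Scgb1a1 fell to 3.41, 6.32, 3.74 and 11.5 CPM (-4.72, standard error 0.20, adjusted p = 2.86e-115) and Sox2 to 0.162, 0.687, 0.306 and 2.04 CPM (-4.12, standard error 0.33, adjusted p = 1.16e-33). Scgb3a1 had 0 reads in 4 of 4 libraries. Taking 3 reads over the summed libraries as the limit (0.0501 CPM), its mean level in vehicle was at least 36.6-fold higher. Trp63 was left with 1 read, against 23 in vehicle, a depth-scaled ratio of 33.4 (95% interval 5.42 to 1375 from the counts). Both were called by edgeR (adjusted p = 3.48e-08 and 0.00750), but not by DESeq2 (0.242 and 0.0807), and Trp63 not without mouse 3 (0.185) or mouse 4 (0.193). The epithelial reference genes were lower in 34 of 34, with a median of -4.13.

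Ngfr was the member that went the other way in the fibroblast libraries of TGF-β cultures. It had 9, 13, 3 and 4 reads in mice 1 to 4, against 0, 2 and 0 reads in vehicle (mice 1, 3 and 4), 0, 2, 0 and 0 in EC and 0, 2, 1 and 0 in IPFc. Over the summed libraries this was 0.484 CPM (95% exact Poisson interval 0.324 to 0.696) in TGF-β and 0.0485 CPM (0.00587 to 0.175) in vehicle, a ratio of 9.99 (2.53 to 86.4 from the counts). The 4 TGF-β libraries lay above every other fibroblast library, but the test against vehicle was not passed (log2 fold change 2.77, standard error 1.31, adjusted p = 0.130). Its size rested on single mice, at 1.66 without mouse 1 (adjusted p = 0.591) and 5.79 without mouse 3 (0.0581), the mouse with reads in vehicle. At a mean under 1 read, Ngfr was not tested for EC and IPFc in this fraction.

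Whether the 2 fractions responded differently was tested as an interaction. For EC it was -1.26 for Scgb1a1 (standard error 0.17, adjusted p = 6.73e-04) and -1.25 for Sox2 (standard error 0.21, adjusted p = 0.00230), 2 of 6 members where 5.06% of 18199 genes were called. That of Scgb3a1 was -1.25 (standard error 0.38, adjusted p = 0.0767) and was called without mouse 3 (0.0319), with DESeq2 (0.0293) and with no filter on low counts (7.61e-04). Without the block, where 4 genes were called against 920 with it, the 2 calls were lost (0.327 and 0.647). For IPFc, where 0.414% of 18349 genes were called, it was between -0.09 and 1.43 and none of the 6 members was called by edgeR (0 with an unadjusted p under 0.05) or by DESeq2. For TGF-β, where 26.2% of 18558 genes were called and the median over all genes was 0.26, it was 3.27 for Scgb1a1 (standard error 0.22, adjusted p = 2.99e-13), 4.57 for Scgb3a1 (1.19, 0.00399), 3.91 for Trp63 (1.34, 0.0291) and 3.48 for Sox2 (0.30, 5.12e-11), all of which fell more in the fibroblast libraries. For Ngfr it was -6.48 (1.06, 1.24e-05), in the opposite direction. The call of Trp63 was lost without mouse 3 (0.180) or mouse 4 (0.127) and with DESeq2 (0.112). In the same interaction tests, 28 of 34 epithelial reference genes were called lower and 0 higher for EC (median -1.08). For TGF-β, 34 of 34 were called higher (median 3.46). The epithelial share of the fibroblast libraries fell from at least 15.2% in vehicle to at most 3.41% in TGF-β. Its part in the differences was not tested further.

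By the pattern of log2 CPM over the 15 epithelial libraries, which share treatments and mice, Scgb1a1 was most like Abca3 (Pearson's r = 0.945), a lipid transporter of alveolar type 2 cells, Filip1 (0.942), Sftpb (0.933), a surfactant protein gene, Il34 (0.933) and Fbxw8 (0.933). Scgb3a1 was most like Trabd (0.966), Snrpb (0.966), Rce1 (0.964), Pgp (0.962) and Rcc1l (0.961). Trp63 was most like Serpinb10 (0.924), Sobp (0.918), Dmrt2 (0.914), Ampd2 (0.914) and Qtrt2 (0.912), none of which is a gene of the basal list, and Ngfr, after Krt5, Krt15 and Aqp3, like Mst1 (0.951) and Gtpbp6 (0.950). Sox2 had lower values, with Anxa7 (0.900), Tob1 (0.878), Psmd11 (0.854), Zbtb2 (0.851) and Cd24a (0.850). Between members, r was 0.876 for Trp63 and Ngfr and 0.742 for Scgb1a1 and Scgb3a1, while for Sox2 with the other members it lay between -0.243 and 0.198. Scgb3a2 had too few reads for this measure. These values describe 13437 genes in the same libraries, and no p is given for them.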

How the data were processed

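Bulk RNA was sequenced by the authors from the Epcam+ and Epcam- cells of the cultures (NEBNext Ultra II Directional kit, Illumina sequencing). Reads were trimmed with Trimmomatic 0.30. The deposited files hold raw counts of reads per Ensembl gene, 1 column per library, and the authors tested them with DESeq2 1.34.0. The labels name the build GRCm39 and the paper GRCm38.p6, and the aligner, the counting tool and its strand setting are not given in the sources used here. Positions and promoters come from RefSeq on GRCm38.p6, and exon lengths from the GENCODE M39 annotation by Ensembl ID.

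From the counts, each comparison tested the genes averaging 1 raw count or more in its own libraries, using edgeR 4.0.16 in R 4.3.3 (TMM normalization, quasi-likelihood test, mouse as a block, two-sided, Benjamini-Hochberg adjustment over all genes tested, called at an adjusted p under 0.05). Interactions were fitted over both fractions with each mouse within a fraction as a block, so that the 2 fractions of a culture were not paired. Fibroblast vehicle lacks mouse 2 and epithelial TGF-β lacks mouse 1, so the responses set against each other come partly from different mice. The labels give the mouse of every culture, so that same-numbered libraries are paired by animal. Deviations from the group means correlated by 0.264 on average between epithelial and 0.283 between fibroblast libraries of a mouse, against -0.085 and -0.092 between mice. In the fibroblast comparisons with vehicle, with 2 residual degrees of freedom, edgeR took the dispersion wholly from the trend over genes, and adjusted p-values there may be too small. The same holds nearly in full for epithelial TGF-β against vehicle (147 prior and 2 residual degrees of freedom). It also holds for the fractions in vehicle (454 and 2). The share of the other fraction is the median CPM ratio to the partner library taken over those reference genes that reach 50 CPM in that partner. Intervals on summed reads, and limits from 0 reads (3 reads), cover counting error only. The scripts were tested on simulated data. Libraries differed within each group by more than sampling noise.

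The 6 genes and the lists (club cell genes, regulators of Scgb1a1, basal cell genes, Ngfr ligands and co-receptors, Sox2 partners and airway regulators, ciliated, goblet, AT2, AT1, neuroendocrine, immune and endothelial cell genes, epithelial and fibroblast reference genes) were chosen with earlier results of these data known. Named beside the members were, per list and direction, at most 3 called genes with the smallest adjusted p, and the 5 genes most correlated with each member. Krt5, Krt15, Bdnf, Sox9, Sox2ot and Cd14 were followed further after their values were seen. A few genes that this rule names are not reported here. Alternatives were other size factors, DESeq2 1.42.0, no filter on low counts or edgeR's own, no block, robust estimation, 1 model over all treatments, subtraction of the other fraction's share, each mouse left out and, chosen after seeing the data, scaling to epithelial reference genes.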

Additional observations from a re-analysis of the deposited data

Results flagged for a closer look

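Among 30 combinations of gene and group in groups of 4 libraries that were examined, 2 held a library far from the rest by Dixon's criterion, which chance meets in about 1 of 20 groups. Scgb1a1 was 990 CPM in the epithelial IPFc library of mouse 2, against 629 to 671 CPM in the other 3. Scgb3a2 was 0.325 CPM, or 6 reads, in the fibroblast EC library of mouse 4, against 0 reads in the other 3.

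The responses of the fractions differed by the interaction test for 7 pairs of gene and treatment. For EC the difference on the log2 scale, epithelial minus fibroblast, was -1.26 for Scgb1a1 and -1.25 for Sox2. For TGF-β it was 3.27 for Scgb1a1, 4.57 for Scgb3a1, 3.91 for Trp63, 3.48 for Sox2 and -6.48 for Ngfr. Fibroblast libraries carried 32.0 to 58.4% of their partner's epithelial reference level in EC, 15.2 to 30.0% in vehicle and 0.946 to 3.41% in TGF-β. The epithelial reference genes had a median difference of -1.08 for EC, with 28 of 34 called lower and 0 higher. For TGF-β their median was 3.46, with 34 of 34 called higher. The part of the epithelial share in the differences was not tested.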

How the results depend on the processing

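Over the 6 members and all comparisons and alternatives, 939 values kept their direction and their side of the threshold. Of the others, 14 newly passed it, 68 no longer passed it and 29 changed sign. The alternatives share libraries, so these counts are not independent. Without the mouse block, epithelial EC had 0 members called (Scgb1a1 -0.55, Scgb3a1 0.97, Ngfr -1.28), IPFc 0 (Scgb1a1 -0.44, Trp63 0.55, Ngfr -1.03, Sox2 0.34), fibroblast EC 0, EC against IPFc 0, EC against TGF-β 2 and the EC interaction 0. Unblocked, epithelial TGF-β Sox2 was -0.44, fibroblast EC Trp63 0.16, the EC interaction of Ngfr -1.004 and the IPFc interactions of Scgb1a1, Ngfr and Sox2 0.068, -1.13 and 0.085. After subtraction of the other fraction, epithelial EC had 0 members called (Scgb1a1 -0.49, Scgb3a1 0.98, Ngfr -1.26), IPFc 1 (Scgb1a1 -0.35, Trp63 0.86, Ngfr -0.89), EC against IPFc 1, EC against TGF-β 2, fibroblast EC 0, TGF-β 0 and IPFc 1, where Scgb1a1 became 9.67 because all its vehicle reads were subtracted (10.79 in fibroblast EC, for the same reason). Over all genes, fibroblast EC, TGF-β and IPFc then had 0, 1369 and 25 called. In the same setting epithelial TGF-β Sox2 was -0.18 and IPFc against TGF-β Scgb3a2 -0.041. Scaled to epithelial reference genes, those were 0.017 and -0.10, and EC against TGF-β had 2 called. With DESeq2, epithelial EC Scgb3a2 was called (-3.07), IPFc Trp63 was not (0.86), fibroblast TGF-β had 2 called, EC against IPFc 1 and the fraction contrast in TGF-β 3, and Ngfr turned to -0.032 there and to -0.093 and -0.31 in the EC and IPFc interactions. With no filter, epithelial EC had 5 called, with Scgb3a2 (-2.95) and Trp63 (-0.66), and IPFc Scgb3a1 was called (-0.42). With edgeR's own filter and with robust estimation IPFc Trp63 was not called (0.72 in both). In 1 model over all treatments, EC Scgb3a2 was called (-3.01), IPFc had 2 called, Trp63 (0.79) and Sox2 (0.34) no longer passing, and fibroblast EC Trp63 was 0.0076. Leaving out each mouse in turn gave, in epithelial EC, 2 to 5 members called and values of -4.44 to -1.88 for Scgb3a2, -0.81 to -0.55 for Trp63 and -1.61 to -0.996 for Ngfr. In IPFc it gave 2 to 5 called, -0.63 to -0.25 for Scgb3a1, 0.5001 to 0.94 for Trp63, -1.25 to -0.75 for Ngfr and 0.25 to 0.44 for Sox2. In EC against IPFc it gave 1 to 2 called, in fibroblast EC -5.09 to 0.39 for Scgb3a2 and -1.18 to 0.54 for Trp63, and between fractions -0.78 to 3.99 for Scgb3a2 in EC and -0.19 to 0.79 for Ngfr in TGF-β. The EC interaction ranged from -3.23 to 2.08 for Scgb3a2, -0.99 to 0.89 for Trp63 and -1.003 to 2.40 for Ngfr, and that of IPFc from -0.23 to 0.14 for Scgb1a1, -0.58 to 0.23 for Trp63, -0.71 to 0.11 for Ngfr and -0.30 to 0.084 for Sox2. Calls over all genes moved too. In epithelial EC they numbered 830 in the main test, 1232 with no filter and 531 to 1522 with a mouse left out. In epithelial IPFc they numbered 1065, 739 in 1 model over all treatments and 722 to 1549 with a mouse left out. In EC against IPFc they numbered 627, 622 with DESeq2 and 363 to 946 with a mouse left out. With DESeq2 they numbered 2765 (main test 3582) in fibroblast TGF-β and 6866 (8486) between fractions in TGF-β. The cause of the changes, beyond the subtraction named, was not tested. Low counts limited precision, with at most 45 reads a library for Scgb3a2 and, in fibroblast libraries, 17 for Trp63 and 13 for Ngfr.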

Other observations

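The other cell types of the epithelial libraries were read from their lists. Over all genes tested, 1.96% were called higher and 2.70% lower in EC, and 3.37% and 2.57% in IPFc. In TGF-β these shares were 21.2% and 20.5%, so that called genes of both directions were common there. The counts below are to be read against these shares. Alveolar type 1 genes had 8 of 13 tested lower and 0 higher in EC, 8 of 14 lower and 0 higher in IPFc, and 5 higher and 5 lower of 14 in TGF-β. Alveolar type 2 genes moved both ways in EC (5 higher and 7 lower of 16) and IPFc (4 higher and 6 lower) and were lower in 15 of 16 in TGF-β. Goblet cell genes, of which 6 of 13 were higher in EC and 7 in IPFc, had 9 of 13 lower and 0 higher in TGF-β, led by the mucin Muc5b (-3.46), the protein disulfide isomerase Agr2 (-3.74) and Bpifb1 (-2.30). Ciliated cell genes had 0 called of 16 in EC by edgeR (1 with an unadjusted p under 0.05), 3 lower of 17 in IPFc, and 2 higher and 4 lower of 17 in TGF-β. Neuroendocrine genes had 0 called of 12 in EC and IPFc (0 with an unadjusted p under 0.05) and 4 higher of 12 in TGF-β. Of the immune list, 2 of 10 were higher and 2 lower in EC, 0 were called in IPFc (2 with an unadjusted p under 0.05) and 4 were higher and 1 lower in TGF-β. Of the endothelial list, 0 of 9 were called in EC (2 with an unadjusted p under 0.05), 1 of 10 was higher in IPFc, and 1 was higher and 2 were lower of 10 in TGF-β. The epithelial reference genes had 3 higher and 5 lower of 34 in EC, 0 and 9 in IPFc, and 3 and 23 in TGF-β, and the fibroblast reference genes had 4 higher and 2 lower of 28 in EC.

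Reads of Ngfr per 100 reads of Trp63 were 81.4, 70.8, 82.3 and 27.8 in the epithelial vehicle libraries of mice 1 to 4, 45.6, 53.6, 35.0 and 50.0 in EC, 27.0, 31.0, 23.2 and 3.75 in IPFc, and 36.8, 13.9 and 0 in TGF-β (mice 2 to 4). In mice 1 to 3 the value was lower than in vehicle under each treatment read in that mouse, and in mouse 4 it was lower in IPFc and TGF-β and higher in EC, on 5 and 18 reads in vehicle.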
